A study of Mus musculus with 4 samples.

Results

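Genes of the cornified envelope and of the upper epidermal layers were examined in sorted mouse mammary cells. The 8 genes were Krtdap, Dmkn, Sbsn, Calm4, Lor, Ivl, Dsg1a and Dsc1, chosen by name from the 24442 genes of the count table, and all 8 were found in it. RNA had been sequenced from Lgr6-positive cells (2 libraries) and Lgr6-negative cells (2 libraries), sorted as lineage-negative cells from digested mammary glands. All mice were female, 5 weeks old and of the line Lgr6-eGFP-CreErt2, in which a fluorescent protein and an inducible recombinase report activity of the Lgr6 locus, so both populations carried the same alleles. The labels describe a sort for LGR6+ cells in the same terms for all 4 libraries, those labelled Lgr6-negative included, and the antibodies of the lineage gate and the gate of the Lgr6-negative cells were not given in the sources used here, and neither was whether replicates came from separate mice. The p-values below therefore reflect the variation among these 4 libraries, which may be technical.

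The cornified envelope is a shell of cross-linked protein that forms beneath the plasma membrane and then takes its place when a keratinocyte dies at the surface of the epidermis. Transglutaminases join loricrin (Lor), involucrin (Ivl) and small proline-rich proteins to one another and to the desmosomes, and lipids are then bound to the outside. Krtdap, Dmkn and Sbsn encode secreted proteins of the upper epidermis. Calm4 encodes a calmodulin-like calcium-binding protein of differentiating keratinocytes, and Dsg1a and Dsc1 encode desmosomal cadherins of the upper layers. These genes are used as marks of late keratinocyte differentiation, which is not part of the usual programme of the mammary ducts.

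The start regions of the 4 members that span the observed range, Krtdap and Calm4 with the highest levels per length in Lgr6-positive cells and Lor and Ivl with none or few, are shown first because 3 of them carry the same pair of short motifs while their counts differed. The sequences are from RefSeq on GRCm38.p6, 5′ to 3′ on the strand of the gene, with matches to the AP-1 letters TGANTCA and to the TATA letters TATAAA in capitals. The regions are chr7:30787655-30787895 (plus strand) for Krtdap, chr13:3837507-3837756 (plus strand) for Calm4, chr3:92083143-92083392 (minus strand) for Lor and chr3:92573736-92573985 (minus strand) for Ivl. The Krtdap stretch is printed with 241 bases and ends at position -10 from its start, since the bases after it lie in an annotated exon. 
Krtdap: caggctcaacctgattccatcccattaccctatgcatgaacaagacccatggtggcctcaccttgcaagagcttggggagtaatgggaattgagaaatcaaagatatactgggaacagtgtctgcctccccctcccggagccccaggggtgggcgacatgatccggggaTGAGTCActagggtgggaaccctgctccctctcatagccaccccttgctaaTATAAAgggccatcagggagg
Calm4: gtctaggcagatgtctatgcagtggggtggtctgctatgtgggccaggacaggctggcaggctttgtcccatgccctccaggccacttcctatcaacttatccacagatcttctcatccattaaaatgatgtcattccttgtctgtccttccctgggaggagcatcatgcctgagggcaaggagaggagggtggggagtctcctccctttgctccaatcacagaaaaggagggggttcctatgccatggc
Lor: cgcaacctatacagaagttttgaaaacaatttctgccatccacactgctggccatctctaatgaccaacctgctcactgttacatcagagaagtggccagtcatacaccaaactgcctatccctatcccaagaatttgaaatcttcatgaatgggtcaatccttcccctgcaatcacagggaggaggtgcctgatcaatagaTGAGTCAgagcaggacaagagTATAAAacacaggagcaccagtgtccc
Ivl: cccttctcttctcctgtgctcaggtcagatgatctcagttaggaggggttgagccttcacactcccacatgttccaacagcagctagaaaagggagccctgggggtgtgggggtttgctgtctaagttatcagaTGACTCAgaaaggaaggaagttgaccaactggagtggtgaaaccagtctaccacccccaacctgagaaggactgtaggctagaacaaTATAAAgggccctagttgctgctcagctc
Motif letters were searched on both strands in the 250 bases before the start, in 8 promoters of the 6 members that were searched. The AP-1 letters were found in 7 of the 8 promoters and in 5 of the 6 genes, all except Calm4, and in 6.75% of 32851 promoters of the same length. The first and second start of Dmkn share 1 site, so the 7 matches lie at 6 positions. In Krtdap the match lay at positions -81 to -75 from the start, in Sbsn at -119 to -113, in Lor at -48 to -42 and in Ivl at -116 to -110. The 3 annotated starts of Dmkn had it at -89 to -83, -91 to -85 and -82 to -76. The TATA letters were found in Krtdap, Lor and Ivl, starting at -30, -27 and -29, and in 12.4% of all promoters. The letters AACCGGTT, a motif of the grainyhead-like factors, were found in 0 of the 8 and in 0.116% of all promoters. A match is a description of the letters and not a measured binding site.

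**Figure D1:**
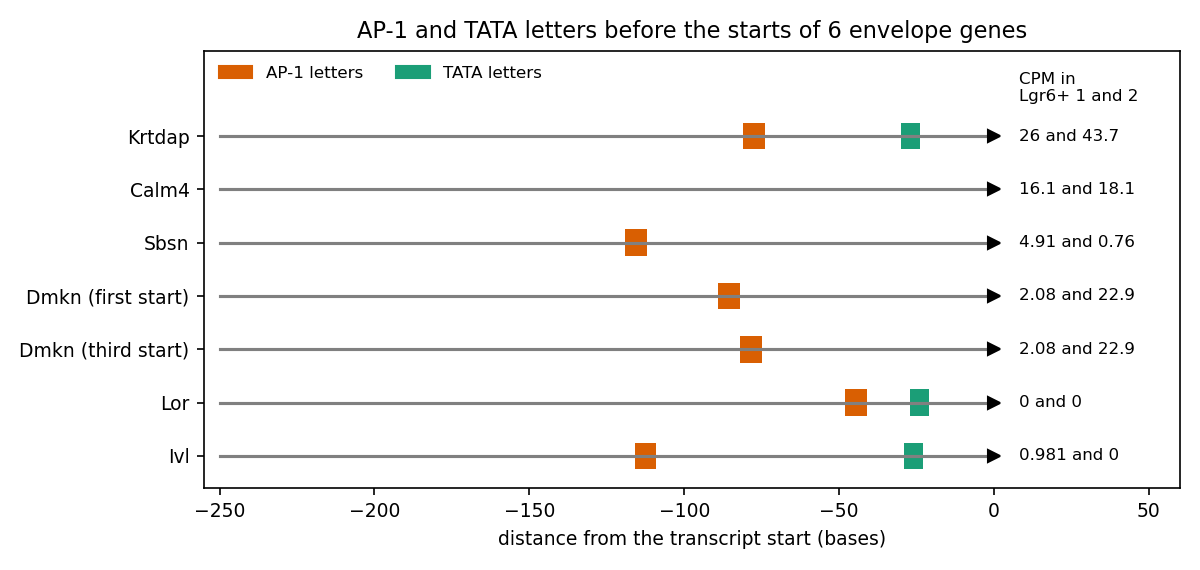
Positions of AP-1 letters (orange) and TATA letters (green) in the 250 bases before the annotated start of 6 envelope genes, with the x axis in bases from the start and the CPM of both Lgr6-positive libraries at the right; the second start of Dmkn, with its match at -91 to -85, is not drawn. Krtdap, Lor and Ivl carry both motifs, Calm4 neither, while Krtdap had 26.0 and 43.7 CPM and Lor 0 in both libraries.

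The libraries held 6819127 to 7167465 counts, so 3 counts in a library, used here as the floor of detection, correspond to 0.368 and 0.380 CPM in the Lgr6-positive and 0.468 and 0.533 CPM in the Lgr6-negative libraries. CPM are counts scaled to a library size that TMM factors adjust. Lgr6 itself had 172 and 655 counts in Lgr6-positive and 3 and 10 counts in Lgr6-negative libraries, in the order the labels imply (edgeR adjusted p = 0.0510, over the alternatives 8.42e-05 with DESeq2 to 0.349 without replicate 2 of the Lgr6-positive cells). The populations also differed in cell type markers. Of 10 leukocyte genes, 8 were lower in Lgr6-positive cells, with 1852 and 2405 summed CPM against 28980 and 33350 in Lgr6-negative cells. Of 14 mammary luminal genes, 12 were higher in Lgr6-positive cells (6631 and 6320 against 259 and 249.9 summed CPM), and of 10 genes of basal epidermal cells, 7 were higher (2846 and 3048 against 287.9 and 263.1 summed CPM). Of 8 genes of mammary basal cells, 0 passed in edgeR or limma-voom, 4 had an unadjusted p under 0.05 and 4 passed with DESeq2 (709 and 903 against 216 and 173 summed CPM), and of 11 genes of fibroblasts, endothelium and adipocytes, 6 were higher (2031 and 1982 against 174 and 178 summed CPM). In such bulk RNA, fewer cells of a type and less RNA per cell cannot be told apart, and the part of these differences in the values below was not tested.

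Of the 8 members, 4 had enough counts to be tested, and 1 of them, Krtdap, was higher in Lgr6-positive cells at an adjusted p under 0.05 in edgeR's quasi-likelihood test. Over the 11661 genes tested, the higher calls made up 4.49% and the lower calls 4.57%. Of the members, 0 were lower, also at an unadjusted p under 0.05, with DESeq2 and with limma-voom, and DESeq2 and limma-voom each called 2 higher. Over all 11661 tested genes, DESeq2 called 1407 higher and limma-voom 754. For 3 of the 4 tested members (Krtdap, Calm4 and Dsg1a) both Lgr6-positive libraries lay above both Lgr6-negative libraries, as they did for 30.0% of all tested genes. Neither Lgr6-negative library had a count of 6 of the 8 members. Among these 6, Ivl and Dsc1 also had few counts in Lgr6-positive cells, and Lor had no count in any library. Of the 24442 genes in the table, the Lgr6-negative libraries, each taken singly, detected 12378 and 12048. The share of all genes without a count in both is not given here. The tested members passed the filter through the population in which they were seen, so these counts of members are descriptions. Their fitted log2 fold changes had a median of 8.94, or 4.12 with genes that lacked counts in Lgr6-negative cells set to their bounds. The median of all tested genes was 0.10, without such bounds. Since 3 of the 4 tested members had no count in Lgr6-negative cells, a high median follows from the filter. It is a description and no support for a difference.

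**Figure D2:**
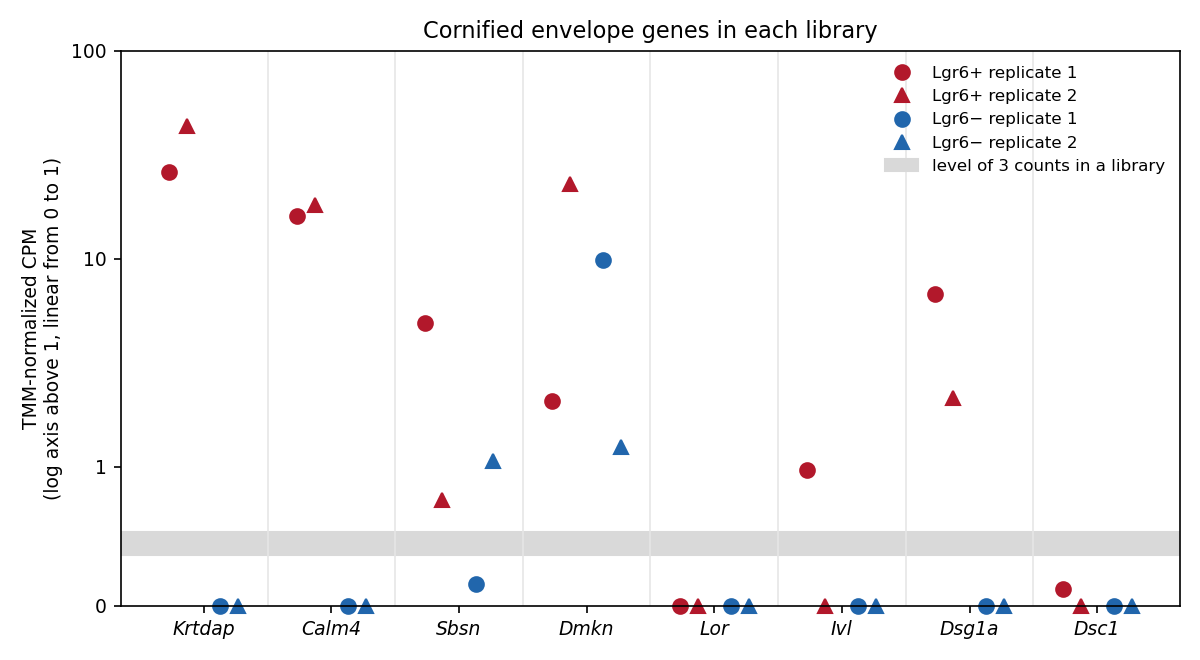
TMM-normalized CPM of the 8 members in each library (y axis logarithmic above 1 and linear from 0 to 1), Lgr6-positive in red at the left and Lgr6-negative in blue at the right of each gene, circles for replicate 1 and triangles for replicate 2; the grey band is the level of 3 counts. Krtdap and Calm4 sit at 16.1 to 43.7 CPM in Lgr6-positive cells and at 0 in Lgr6-negative cells, while the libraries of Dmkn and Sbsn overlap.

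Among the secreted proteins, Krtdap, the keratinocyte differentiation-associated protein, was detected in Lgr6-positive cells alone, Dmkn was detected in both populations and Sbsn at low counts in both. Krtdap had 212 and 345 counts in Lgr6-positive cells and 0 in both Lgr6-negative libraries. That is 26.0 and 43.7 CPM, or 34.9 ± 12.5 CPM (mean ± SD, n = 2 libraries) in Lgr6-positive cells, with no count in Lgr6-negative cells. Both Lgr6-positive libraries were far above the floor, and the populations did not overlap. Against 3 counts per Lgr6-negative library, Krtdap was at least 69.6-fold higher in Lgr6-positive cells. The fitted log2 fold change was 10.94 (SE 2.28), which depends on the model for a gene with no counts on 1 side, with an edgeR adjusted p of 0.0252. The call held in 12 of 12 alternative analyses, with adjusted p-values of 3.77e-06 to 0.0260.

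Dmkn, which encodes dermokine, had 17 and 181 counts in Lgr6-positive cells and 63 and 7 in Lgr6-negative cells, or 2.08 and 22.9 CPM against 9.83 and 1.24 CPM. In each population 1 library was high and the other low, so the ranges overlapped. The means were 12.5 ± 14.7 CPM in Lgr6-positive and 5.54 ± 6.07 CPM in Lgr6-negative cells (SD, n = 2 each), and the fitted log2 fold change of 1.17 (SE 1.88) did not pass (edgeR adjusted p = 0.786). It was -1.43 without replicate 2 of the Lgr6-positive cells, 0.34 without replicate 2 of the Lgr6-negative cells and 3.31 without replicate 1 of the Lgr6-negative cells. Dmkn is the member for which single libraries decide the direction.

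Sbsn, which encodes suprabasin, had 40 and 6 counts in Lgr6-positive cells and 1 and 6 in Lgr6-negative cells, or 4.91 and 0.760 CPM against 0.156 and 1.07 CPM. Replicate 1 of the Lgr6-positive cells was the only library with more than a few reads, and the lower Lgr6-positive library lay below the higher Lgr6-negative one. It fell below the filter. Without the filter its log2 fold change was 2.17 (SE 3.58, edgeR adjusted p = 0.788). Of its exonic bases in the annotation, 7.70% are shared with another gene. Sbsn, Dmkn and Krtdap lie side by side on the plus strand of chromosome 7, at 30751471 to 30756134, 30763756 to 30781063 and 30787896 to 30791097 on GRCm38, with 7621 and 6832 bases between them and 39627 bases in all. These neighbours did not share a profile: the library highest for Sbsn was the lower of the Lgr6-positive pair for Dmkn and for Krtdap.

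Calm4, the calmodulin-like member, had 131 and 143 counts in Lgr6-positive cells and 0 in both Lgr6-negative libraries, or 16.1 and 18.1 CPM against 0. It varied least between the Lgr6-positive libraries of the members seen in both, at 17.1 ± 1.45 CPM (SD, n = 2), and the populations did not overlap. It was at least 34.1-fold higher in Lgr6-positive cells against the floor, with a fitted log2 fold change of 9.91 (SE 2.69). The edgeR adjusted p of 0.0617 missed the threshold. Calm4 passed in 5 of 12 alternatives: without a filter (0.0302), at a minimum count of 30 (0.0485), with DESeq2 (7.01e-04), with limma-voom (0.0145) and without replicate 1 of the Lgr6-positive cells (0.0408). Wherever a library is left out, the lone library of its population is assumed to vary like the other population. Its adjusted p over all alternatives ran from 7.01e-04 to 0.139. The gene lies on chromosome 13 from 3837757 to 3838673, on the plus strand.

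**Figure D3:**
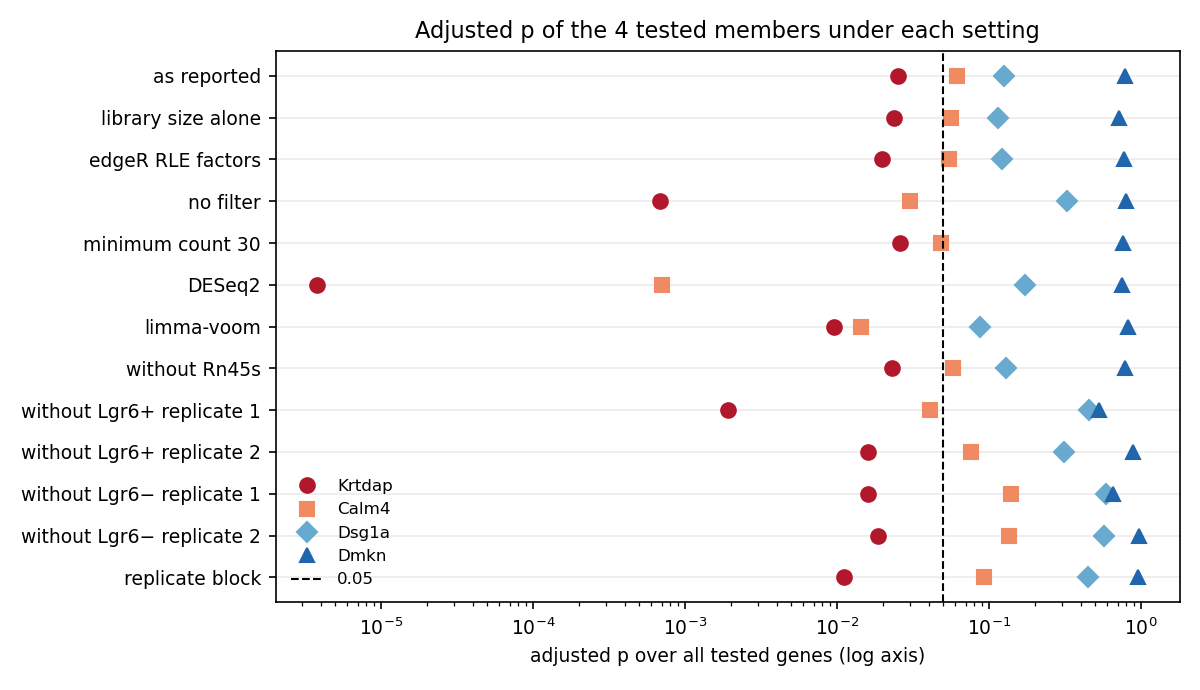
Adjusted p (x axis, logarithmic) of the 4 tested members under the analysis as reported and each alternative (rows), with the dashed line at 0.05. Krtdap lies left of the line in every row, Calm4 crosses it in 5 rows below the first, and Dsg1a and Dmkn stay right of it; Dsg1a was not tested at a minimum count of 30.

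Of the envelope precursors among the members, Lor was not detected and Ivl had few reads. Lor had 0 counts in all 4 libraries, which limits it to under 0.368 and 0.380 CPM in Lgr6-positive and under 0.468 and 0.533 CPM in Lgr6-negative cells at 3 counts each. Ivl had 8 and 0 counts in Lgr6-positive cells and 0 in both Lgr6-negative libraries. A single library thus held all of its reads, at 0.981 CPM, and Ivl was too low to test. Without the filter its log2 fold change was 4.82 (SE 4.83, edgeR adjusted p = 0.659). Lor lies on chromosome 3 from 92080271 to 92083142 and Ivl from 92570902 to 92573735, both on the minus strand.

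Lor and Ivl belong to the epidermal differentiation complex, a cluster of envelope genes between S100a1 and S100a10 on chromosome 3 (90511034 to 93564643). The table held 68 protein-coding genes of this interval, 54 of them outside the S100 family, and 40 of those 54 had no count in any library. Only 2 of the 54, Sprr1a and Sprr2a3, had at least 10 counts in both Lgr6-positive libraries, and 0 had them in both Lgr6-negative libraries. Sprr1a, a small proline-rich envelope precursor, had 1145 and 2161 counts in Lgr6-positive cells and 0 and 2 in Lgr6-negative cells, with a count ratio of 1240 (95% counting interval 343 to 10240) and an edgeR adjusted p of 0.00153. Such intervals cover counting error only, since PCR copies are not independent molecules. Sprr2a3, named after its values were seen, had 21.9 and 15 counts against 0 and 0, and its reads may be shared with near-identical Sprr2a copies.

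Of 32 other envelope precursors and cross-linking genes in the table, 9 were tested, 2 were higher in Lgr6-positive cells and 7 did not pass, while DESeq2 called 5 higher. The list held 16 genes without a count anywhere, among them all listed late cornified envelope (Lce) genes. Besides Sprr1a, the gene for periplakin (Ppl), which links the envelope to desmosomes and keratin, averaged 145 ± 31.6 CPM in Lgr6-positive cells and 8.42 ± 3.10 CPM in Lgr6-negative cells (SD, n = 2 each), with a log2 fold change of 4.10 (SE 0.75, edgeR adjusted p = 0.0122). Tgm5, a transglutaminase of the epidermis, had 46 and 193 counts in Lgr6-positive cells and 0 in both Lgr6-negative libraries (adjusted p = 0.0759). Of 2 further transglutaminases, named after their values were seen, Tgm1, the membrane-bound transglutaminase that cross-links the envelope, had 264 and 314 counts in Lgr6-positive cells against 36 and 0 in Lgr6-negative cells (adjusted p = 0.276), and Tgm3, which acts late in epidermis and hair, had 9 and 0 against 71 and 34 (log2 fold change -3.91, adjusted p = 0.362). Rptn and Tchh, both of the fused S100 type, had 31 and 20 counts in replicate 2 of the Lgr6-positive cells and none in the other libraries.

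The desmosomal cadherins of the upper layers were low. Dsg1a had 55.5 and 17.2 estimated counts in Lgr6-positive cells and 0 in both Lgr6-negative libraries, or 6.74 and 2.15 CPM against 0. The populations did not overlap, and replicate 1 of the Lgr6-positive cells was the higher library. Against the floor it was at least 8.89-fold higher in Lgr6-positive cells, but it did not pass (log2 fold change 7.97, SE 2.85, edgeR adjusted p = 0.125), and it passed in 0 of 11 alternatives. Its fractional counts come with a near-identical neighbour, Dsg1b, which had 94.5 and 153.8 counts in Lgr6-positive cells and 0 in Lgr6-negative cells (adjusted p = 0.0667; named after its values were seen), so the split of reads between them is uncertain. Dsc1, which encodes desmocollin 1, had 1 and 0 counts in Lgr6-positive cells and 0 in both Lgr6-negative libraries, at or under the floor everywhere. Dsg1a and Dsc1 lie on chromosome 18, from 20310811 to 20343350 on the plus strand and from 20084184 to 20114871 on the minus strand.

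Per kilobase of exon, Dsg1a averaged 0.783 CPM in Lgr6-positive cells and Dsg1b, with which it may share reads, 3.93, against 304 for Perp, 95.4 for Dsp, 10.8 for Dsc2 and 8.55 for Dsg3, genes of the list of other desmosome genes. Of the 12 of that list in the table, 11 were tested, and 8 were higher in Lgr6-positive cells and 3 did not pass. In the envelope, keratin, desmosome and barrier lists 0 tested genes were lower in edgeR, also at an unadjusted p under 0.05, in DESeq2 and in limma-voom. Dsp, which encodes desmoplakin, the link to keratin filaments, had 605 and 1239 CPM in Lgr6-positive cells and 58.5 and 31.1 CPM in Lgr6-negative cells (log2 fold change 4.36, edgeR adjusted p = 0.00194). Perp, a desmosome membrane protein, had 548 and 639 CPM against 9.21 and 3.02 CPM (log2 fold change 6.59, adjusted p = 9.32e-04). Dsg3, a desmosomal cadherin of the lower epidermal layers, had 441 and 515 counts in Lgr6-positive cells against 0 and 1 in Lgr6-negative cells (adjusted p = 0.0111), and Dsc2, a widely expressed one, had 584 and 336 against 2 and 0 (adjusted p = 0.0167).

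Of the 15 listed suprabasal keratins in the table, 11 were tested, and 7 were higher in Lgr6-positive cells and 4 did not pass. Krt1 and Krt10, the keratin pair of suprabasal epidermis, had 1614 and 850 counts (Krt1) and 1244 and 1432 counts (Krt10) in Lgr6-positive cells, and 1 and 1 (Krt1) and 0 and 0 (Krt10) in Lgr6-negative cells, each with an edgeR adjusted p of 0.00125. Krt4, a suprabasal keratin of moist stratified epithelia, had 2340 and 5034 counts in Lgr6-positive cells against 4 and 0 in Lgr6-negative cells (adjusted p = 9.57e-04), and Krt79 had 781 and 1048 against 0 and 0 (adjusted p = 0.00267). Krt78 and Krt77 had 123 and 63 counts in replicate 1 of the Lgr6-positive cells and none in the other libraries. The summed level of the list was 1295 and 1509 CPM in Lgr6-positive and 110.3 and 98.3 CPM in Lgr6-negative cells. In Lgr6-negative cells 92.2% and 96.6% of it was Krt80, named after its values were seen, with 2 and 292 counts in Lgr6-positive and 652 and 534 in Lgr6-negative cells (adjusted p = 0.389). The log2 fold change of Krt80 was -2.40, and -8.57 without replicate 2 of the Lgr6-positive cells, the library with 292 counts.

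**Figure D4:**
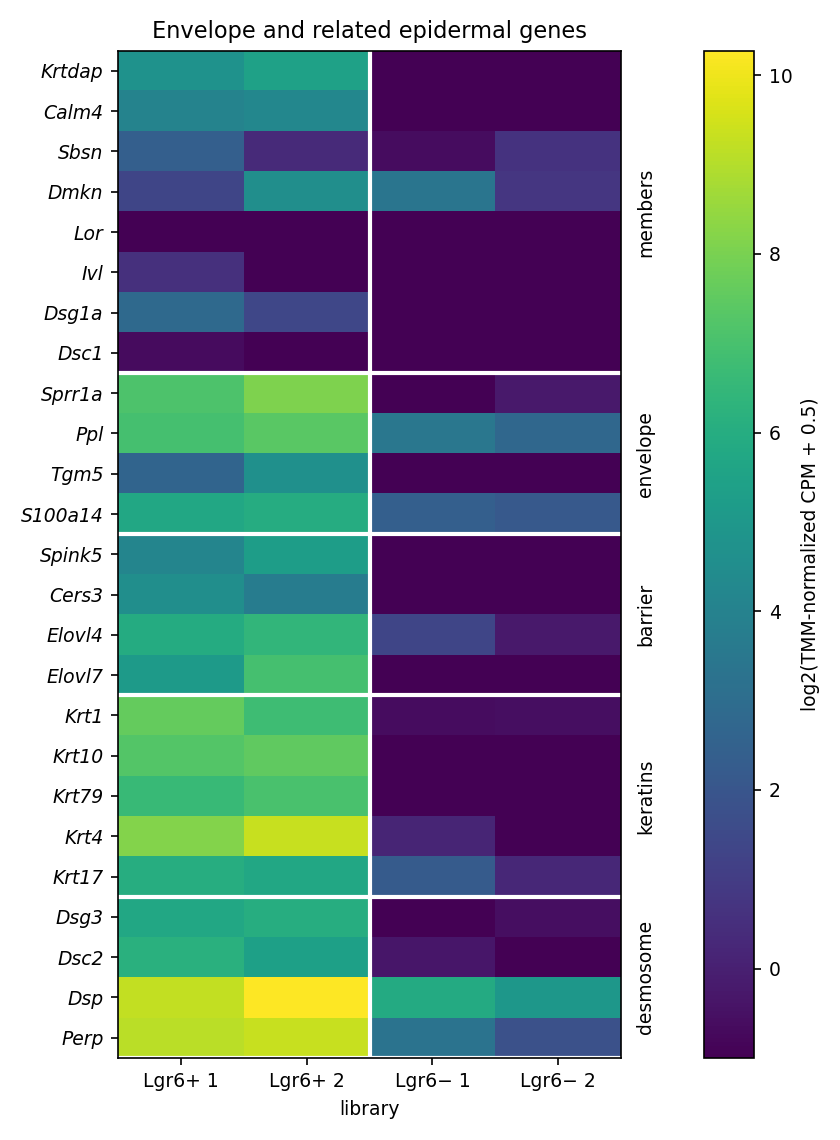
Colour map of log2(TMM-normalized CPM + 0.5) for the 8 members and the named tested genes of 4 related lists (rows) in the 4 libraries (columns, Lgr6-positive at the left). Values are not divided by gene length. The rows of Krtdap, Calm4, the drawn keratins and the drawn desmosome genes are brighter in both Lgr6-positive columns than in both Lgr6-negative columns. Lor is dark throughout, and Dmkn and Sbsn are mixed. The drawn list genes were picked mainly by smallest p, so their brightness follows from that choice. Krt80, with more counts in Lgr6-negative cells, is not drawn.

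Of 22 genes for the barrier proteases and lipids that complete the envelope, 9 were tested, and 3 were higher in Lgr6-positive cells and 6 did not pass, while DESeq2 called 7 higher. Elovl7 (285 and 985 counts in Lgr6-positive against 0 and 0 in Lgr6-negative cells, edgeR adjusted p = 0.00821) and Elovl4 (498 and 666 against 13 and 2, adjusted p = 0.0250) encode enzymes that lengthen fatty acids. Spink5, an inhibitor of the proteases that shed cornified cells, had 138 and 301 counts against 0 and 0 (adjusted p = 0.0384), and its adjusted p was 0.0672 without replicate 2 of the Lgr6-positive cells. Cers3, the ceramide synthase of the barrier, had 192 and 102 against 0 and 0 (adjusted p = 0.0597). Cdsn, which encodes corneodesmosin, had 153 counts in replicate 2 of the Lgr6-positive cells and none elsewhere. The proteases Klk5 and Klk7 and the lipoxygenase gene Alox12b had no count in any library.

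Of 14 regulators of late epidermal differentiation in the table, 13 were tested, and 3 were higher, 2 lower and 8 did not pass. Of those 8, 3 had a positive log2 fold change, and the median over the 13 tested was -0.24. Zfp750, a factor that promotes terminal epidermal differentiation, had 963 and 474 counts in Lgr6-positive cells and 0 in both Lgr6-negative libraries (edgeR adjusted p = 0.00473). Trp63, the p63 factor of stratified and basal epithelia, averaged 148 ± 18.9 CPM in Lgr6-positive and 9.56 ± 1.71 CPM in Lgr6-negative cells (log2 fold change 3.96, adjusted p = 0.0112), and Gata3, which also acts in mammary luminal cells, 148 ± 50.9 and 5.57 ± 3.69 CPM (log2 fold change 4.74, adjusted p = 0.0114, or 0.0541 with limma-voom). Cebpb (log2 fold change -3.81, adjusted p = 0.0228) and Hopx (log2 fold change -4.75, adjusted p = 0.0455; named after its values were seen) were lower in Lgr6-positive cells. The adjusted p of Cebpb was 0.104 without replicate 2 of the Lgr6-negative cells and 0.0539 when scaled by library size alone. That of Hopx was 0.170 and 0.0537 without replicate 1 and replicate 2 of the Lgr6-negative cells, 0.0730 with library size alone and 0.0684 with limma-voom. Grhl3, the grainyhead-like factor of barrier formation, had 14 counts in replicate 1 of the Lgr6-positive cells and none elsewhere.

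**Figure D5:**
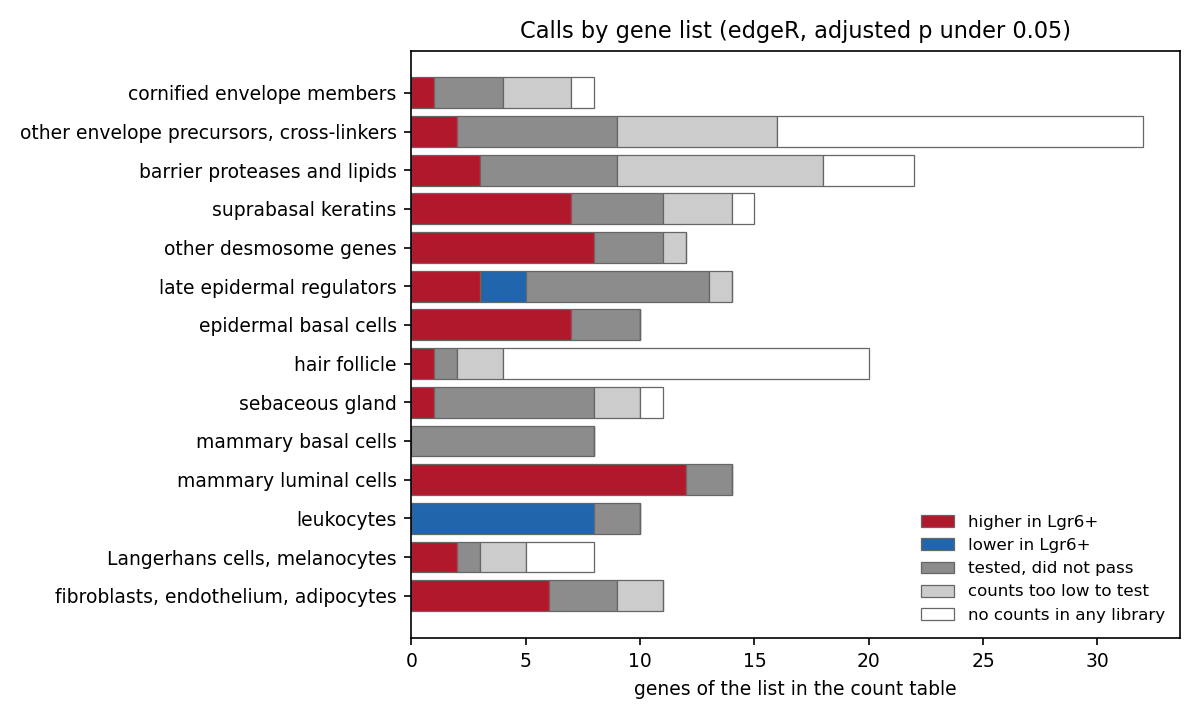
Number of genes of each list in the count table (x axis), split into those higher (red) or lower (blue) in Lgr6-positive cells at an edgeR adjusted p under 0.05, those tested that did not pass (dark grey), those too low to test (light grey) and those without a count in any library (white). Of the 8 envelope members 1 is red, against 7 of 15 suprabasal keratins and 8 of 12 other desmosome genes.

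Markers of skin appendages were also counted, since they come from the same kind of epithelium. Of 20 hair follicle genes, 16 had no count in any library, among them all inner root sheath keratins listed, and Krt33a, with 2 and 0 counts in Lgr6-negative cells, was the only hair keratin seen. Sox9, which is also expressed in mammary epithelium, was the 1 of 2 tested that was higher (2295 and 3095 against 41 and 240 counts, edgeR adjusted p = 0.0263). The other, Lhx2, had 11 and 45 counts in Lgr6-positive and 0 and 0 in Lgr6-negative cells, and did not pass (edgeR adjusted p = 0.137). Of 11 sebaceous gland genes, 8 were tested and 1, Scd3, a fatty acid desaturase, was higher (273 and 1045 against 0 and 1.03 counts, adjusted p = 0.00885). Elovl3 and Awat2, sebaceous lipid enzymes, had 25 and 96 counts (Elovl3) and 13 and 26 counts (Awat2) in Lgr6-positive cells and 0 in Lgr6-negative cells, and did not pass (adjusted p = 0.108 and 0.144). Soat1, which esterifies cholesterol, had 517 and 622 counts in Lgr6-positive cells against 1322 and 789 in Lgr6-negative cells (log2 fold change -1.28, adjusted p = 0.177). The summed level of the sebaceous list overlapped, at 600 and 1039 CPM in Lgr6-positive and 848 and 896 CPM in Lgr6-negative cells. Plin2, named after its values were seen, had the largest share of this sum. It made up 42.6% and 50.3% in Lgr6-positive and 55.0% and 59.2% in Lgr6-negative cells. Of the 7 tested sebaceous genes that did not pass, 4 had a positive log2 fold change. Of 8 Langerhans cell and melanocyte genes, 3 were tested and 2, Epcam and Kit, were higher in Lgr6-positive cells, both also expressed in mammary epithelium, and the adjusted p of Kit was 0.152 without replicate 1 of the Lgr6-positive cells and 0.0775 with limma-voom. Dct, Tyrp1 and Mlana had no count in any library, and Cd207 had 40 counts in replicate 2 of the Lgr6-negative cells and 0 in the other libraries. Their part in the envelope values was not tested.

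Per kilobase of exon, the order of the members' mean levels in Lgr6-positive cells was Krtdap (51.3 CPM per kb), Calm4 (18.6), Dmkn (5.71), Dsg1a (0.783), Sbsn (0.781), Ivl (0.255), Dsc1 (0.0122) and Lor (0). Krtdap was above Calm4 in each Lgr6-positive library, at 38.3 and 64.4 against 17.5 and 19.8 CPM per kb. Dmkn, at 0.951 and 10.5 CPM per kb, lay below both Calm4 libraries but overlapped Dsg1a, at 1.19 and 0.379, which in turn overlapped Sbsn, at 1.35 and 0.210. In Lgr6-negative cells only Dmkn and Sbsn had reads, at 4.48 and 0.568 (Dmkn) and 0.0430 and 0.294 CPM per kb (Sbsn).

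Summed over the 8 members, the level was 56.9 and 87.7 CPM in Lgr6-positive cells and 9.99 and 2.31 CPM in Lgr6-negative cells. Krtdap made up 45.7% and 49.9% of the sum in Lgr6-positive cells, and Dmkn 98.4% and 53.8% in Lgr6-negative cells. The share of Calm4 was 28.2% and 20.7% in Lgr6-positive cells, that of Dmkn 3.66% and 26.2% and that of Dsg1a 11.9% and 2.46%. The make-up of the sum therefore differed between the Lgr6-positive libraries in its smaller parts, with Krtdap first in both.

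A mean profile over the 4 libraries was taken from the members with at least 10 counts in all, Krtdap, Calm4, Sbsn, Dmkn and Dsg1a. It was compared with 13782 candidates, which left out every gene of the lists. Gene models known by number and ribosomal genes were passed over. By root mean square distance of centred log2 CPM, the closest were Fam132a (0.0901), Hoxa7 (0.0982), Tmprss11b (0.102), Zbtb8a (0.104) and Ccl21a (0.109). All 5 had 27 to 35.1 counts in each Lgr6-positive library and none in Lgr6-negative cells. In edgeR 0 of the 5 passed (adjusted p = 0.123 to 0.128), while all 5 had an unadjusted p under 0.05. So did 2927 of the 11661 tested genes. The 5 were picked for this profile, so their p-values are no separate support. The members themselves lay farther from their own mean, from 0.571 for Dsg1a, through 1.05 for Calm4 and 1.55 for Krtdap, to 2.05 for Dmkn.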

How the data were processed

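RNA was measured in 2 Lgr6-positive and 2 Lgr6-negative libraries. The authors deposited expected counts for each gene, with no scaling for depth. Per the submitters' processing notes, the tools were RSEM 1.2.22 and STAR 2.4.2a and the build mm10; which annotation, strand setting and trimming were applied is not given in the sources used here. Before analysis the expected counts were rounded, and edgeR 4.0.16 in R 4.3.3 was applied with TMM factors, filterByExpr (minimum count 10, minimum total 15), and glmQLFTest with population as the only factor over all 11661 genes kept, with Benjamini-Hochberg adjustment. A positive log2 fold change means higher in Lgr6-positive cells, and its SE was taken from the F statistic. CPM were TMM-normalized. A fold against libraries without any count was computed as a bound at 3 counts each, and against 1 to 3 counts as a count ratio with its 95% interval. The steps were tested on simulated data.

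The members and the 13 other gene lists (183 of 184 genes in the table) were chosen with earlier results of these data known. By rule, the named genes were the members, Lgr6, the 5 nearest profiles and the 4 tested genes of each list with the smallest p. List genes below the filter with at least 10 counts in a library were added. Not every gene of this rule is described in the text. Some list genes with few or no counts, and those marked as named after their values were seen, are described outside it. Alternatives used DESeq2 1.42.0 and limma 3.58.1 (voom), other scalings and filters, omitted libraries and a replicate block. Positions came from GENCODE M21 for 59 of 61 named genes, promoters from RefSeq. Replicate pairs differed beyond counting noise (chi-square per degree of freedom 101.4 and 87.03). Other steps used Python 3.11.15.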

Additional observations from a re-analysis of the deposited data

How the results depend on the processing

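Krtdap kept its direction and passed in 12 of 12 alternatives, Calm4 passed in 5 of 12, and Dmkn and Dsg1a passed in 0 of those run. The count of members called higher was 2 in place of 1 without a filter, at a minimum count of 30, with DESeq2 and with limma-voom, and 1 to 2 when single libraries were left out, the second being Calm4. Over all genes, 967 were higher and 854 lower without a filter, 1407 higher and 997 lower with DESeq2, and 327 lower when scaled by library size alone, which moved the median log2 fold change by 0.45 and made 65.8% of calls higher, against 49.6% as reported and 58.5% with DESeq2. Leaving out single libraries gave 678 to 956 genes higher and 540 to 1030 lower, the highest of both without replicate 1 of the Lgr6-positive cells. The log2 fold change of Dmkn ran from -1.43 (without replicate 2 of the Lgr6-positive cells) to 3.31 when single libraries were left out. That of Cd1d1, a gene of the Langerhans cell list that did not pass (-0.17), was 0.24 with library size alone and ran from -1.45 to 0.49 when single libraries were left out. Without Rn45s in the library size, the summed level of the members in replicate 2 of the Lgr6-positive cells was 111.2 CPM. Rn45s held 17.22% and 14.5% of counts in Lgr6-positive and 18.69% and 30.82% in Lgr6-negative libraries. Leaving it out changes the scale of CPM in every library, so this value alone shows no shift between the populations. The labels give both populations replicates 1 and 2, but same-numbered samples did not deviate together (correlation -0.02); with a replicate block 678 genes were higher and 662 lower, and the adjusted p was 0.0110 for Krtdap and 0.0924 for Calm4. Of the other comparisons of the 53 tested genes named, 577 kept direction and side, 44 newly passed and 6 no longer passed. The cause of these shifts was not tested. Of genes named after their values were seen, Hopx passed in 8 of 12 alternatives and Calml3 in 12 of 12. Among alternatives that keep all 4 libraries, Dsg1b passed without a filter, with DESeq2 and with limma-voom only. Depth limits Lor, Ivl, Dsc1 and Sbsn, which have few or no counts in most libraries.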

Other observations

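Calm4 has relatives and neighbours that were named after their values were seen. Calml3, a calmodulin-like gene of stratified epithelia at 3802896 to 3804316 on chromosome 13, close to Calm4, had 343 and 333 counts in Lgr6-positive cells and 0 in both Lgr6-negative libraries, at least 84.1-fold higher against 3 counts per library (edgeR adjusted p = 0.0167). Calm5, on the other side of Calm4, had 0 and 27 counts in Lgr6-positive cells and 0 in Lgr6-negative cells and was not tested.

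Several epidermal genes had nearly all of their reads in 1 library. Pglyrp4, which lies in the chromosome 3 interval of Lor and Ivl, had 216 counts in replicate 2 of the Lgr6-positive cells and 0 in the other libraries, and Tchhl1, in the same interval, had 138 in replicate 2 of the Lgr6-negative cells and 0 elsewhere. Padi3, a peptidylarginine deiminase of hair follicle and epidermis, had 0 and 177 counts in Lgr6-positive and 0 and 3 in Lgr6-negative cells, and Klk8, a protease of the upper epidermis, 0 and 0 in Lgr6-positive and 2 and 94 in Lgr6-negative cells. Reads of Scel, which encodes the envelope protein sciellin, were uneven within both populations: it had 133 and 0 counts in Lgr6-positive and 52 and 3 in Lgr6-negative cells. Pglyrp4, Tchhl1 and Scel were named after their values were seen.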
